A study of Mus musculus with 8 samples.

Results

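LIM homeobox genes encode transcription factors that join a DNA-binding homeodomain to a pair of LIM zinc-finger domains, through which they bind cofactors. The 7 genes described here are Lhx1, Lhx2, Lhx6, Lhx8, Lhx9, Isl1 and Lmx1b. They were taken by symbol: a probe set counted when the platform annotation gave it exactly 1 of these symbols. This held for 14 of the 34945 probe sets with 1 gene symbol, which covered 18193 genes. Each gene was read from its brightest probe set over the 8 arrays. The 7 genes were picked from the 12 LIM homeobox genes of the mouse with their levels across these samples known. Their levels and their differences between samples are therefore given as a description, with no test.

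The study measured RNA from E11.5 mouse embryos on 8 Affymetrix arrays, 4 from FAK mutants and 4 from controls. FAK, or focal adhesion kinase, passes on signals from integrins where cells grip the matrix. The groups were a FAK mutant and a control array of cranial neural crest cells sorted for p75 from dissected heads and thoraxes, with 3 embryos pooled on each, and a mutant and a control array of each of 3 further origins, OFT, LM and UM. The labels do not spell out OFT, LM and UM, name neither the FAK allele nor any Cre driver, and do not give the number of embryos behind these 6 arrays, whose embryonic day is that of the series title. All samples are labelled head/neck.

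FAK is encoded by Ptk2, whose transcript was not analysed here, so the mutant labels were not checked against it. p75 is the product of Ngfr, a surface receptor of neural crest cells, and Ngfr had intensities of 1422 and 1043 in the p75-sorted mutant and control, against 47.0 to 149 on the other 6 arrays. The 3′ to 5′ ratio of the Gapdh control probe sets was 4.91 in the p75-sorted mutant and 2.82 in the p75-sorted control, against 0.700 to 0.986 on the other 6 arrays; that of the Actb control was 1.65 and 1.57, against 1.42 to 1.94. Its part in the differences of p75-sorted cells was not tested. Each origin has 1 array per genotype, and nothing in the labels describes further replicates.

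LIM homeodomain factors act in combinations that set regional and neuronal identity. In the mouse, Lhx6 and Lhx8 mark the mesenchyme next to the mouth in both jaws and act in palate and tooth formation, and Isl1 marks heart progenitors that build the outflow tract as well as cranial sensory and motor neurons. Lhx2 acts in the eye, forebrain and head muscle, Lhx1 in the early head organizer, kidney and neurons, Lhx9 in the gonad, limb and brain, and Lmx1b in the dorsal limb, the periocular mesenchyme and the midbrain.

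Lhx6 and Lhx8 were high in LM and UM and low in OFT and p75-sorted cells. Values are intensities on a linear scale, and an intensity of 19.4, the 40th percentile of all values, was taken as the level below which a probe set is dim and its order among arrays is not read. Lhx8 had intensities of 79.8 and 73.8 in the OFT mutant and control, against 866 and 1101 in the LM mutant and control and 709 and 805 in the UM mutant and control. In p75-sorted cells it had 117 in the mutant and 109 in the control. The OFT arrays lay far below the 4 LM and UM arrays, with no overlap. Lhx6 had intensities of 57.3 and 83.6 in the OFT mutant and control, against 267 and 310.0 in the LM mutant and control and 319 and 239 in the UM mutant and control. It had 65.1 in the p75-sorted mutant and 77.0 in the p75-sorted control, which overlapped OFT.

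On the log2(intensity + 32) scale, Lhx8 was 3.03 ± 0.16 lower in OFT than the mean of LM and UM (difference -3.03, moderated SE, n = 2 arrays per origin), 8.20-fold on that scale. Lhx6 differed by -1.63 ± 0.18, or 3.09-fold. Between LM and UM Lhx8 had a mean log2 level of 9.98 in LM and 9.62 in UM, and the arrays did not overlap, whereas Lhx6 had 8.32 in LM and 8.27 in UM, and the arrays overlapped. Relative to the average of the 3 unsorted origins, p75-sorted cells differed by -1.61 ± 0.15 for Lhx8 and -1.07 ± 0.17 for Lhx6, although OFT lay as low or lower. In p75-sorted cells 5 of 6 surface epithelium markers and 4 of 4 endothelium markers also fell. So did 4 of 6 cardiac muscle and 2 of 3 erythroid markers, and in these lists 0 rose. Of the 4, Myl7 and Tnni3 entered the test only through the OFT arrays, which are part of the reference, so their calls are not read as results. By limma at an adjusted p under 0.05, 18.9% of all genes tested fell there and 47.1% were called in either direction. Markers of neurons, neural crest and glia, skeletal muscle precursors and neural tube went the other way, as given below. The part of these cell types was not tested. In bulk samples fewer cells of a type and less RNA per cell cannot be told apart.

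The sequence before the start sites of Lhx8 and Lhx6 is shown because these genes share an origin pattern, and that of Isl1 because its pattern runs the other way between OFT and the LM and UM arrays. RefSeq start sites of GRCm38.p6 were found for 7 of 7 genes, 10 windows of 250 bases in all. Capitals mark the letters TAAT, the core that homeodomains bind, and GATAA, the core of GATA factors, on either strand, so that a match on the other strand reads ATTA or TTATC.
Lhx8, chr3:154330561-154330810, minus strand: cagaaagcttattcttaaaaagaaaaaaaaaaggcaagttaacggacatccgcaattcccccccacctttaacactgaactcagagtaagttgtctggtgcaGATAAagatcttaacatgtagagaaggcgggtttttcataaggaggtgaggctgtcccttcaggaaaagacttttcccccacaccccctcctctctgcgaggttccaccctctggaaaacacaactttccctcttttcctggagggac
Lhx6, most downstream of 3 start sites, chr2:36104061-36104310, minus strand: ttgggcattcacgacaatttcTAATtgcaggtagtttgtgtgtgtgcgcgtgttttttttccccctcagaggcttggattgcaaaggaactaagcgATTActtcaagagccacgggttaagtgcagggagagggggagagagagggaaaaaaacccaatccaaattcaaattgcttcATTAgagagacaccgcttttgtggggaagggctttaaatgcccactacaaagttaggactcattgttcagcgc
Isl1, chr13:116309689-116309938, minus strand: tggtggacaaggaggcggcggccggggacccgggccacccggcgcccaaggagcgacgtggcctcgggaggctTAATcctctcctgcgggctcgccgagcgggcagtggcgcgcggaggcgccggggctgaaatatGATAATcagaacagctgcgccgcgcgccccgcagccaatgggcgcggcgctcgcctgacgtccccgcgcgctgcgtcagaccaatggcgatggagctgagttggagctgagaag
The Lhx8 window held 0 TAAT matches and 1 GATAA match, 148 bases before the start. The Lhx6 window held 3 TAAT matches, 229, 154 and 73 bases before the start, while the other 2 Lhx6 windows held 0. The Isl1 window held TAAT at 177 and 112 bases and GATAA at 114 bases, the last 2 overlapping. TAAT was found in 4 of the 10 windows and in 54.9% of all 32851 promoter windows of this length, GATAA in 3 of 10 and in 22.6%, and the longer homeodomain word TAATTA in 0 of 10 and in 4.84%. The Isl1 window was 71.2% G and C with 33 CpG pairs, the Lhx8 window 46.0% with 4, and the median of all windows 52.4% with 6.

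**Figure D1:**
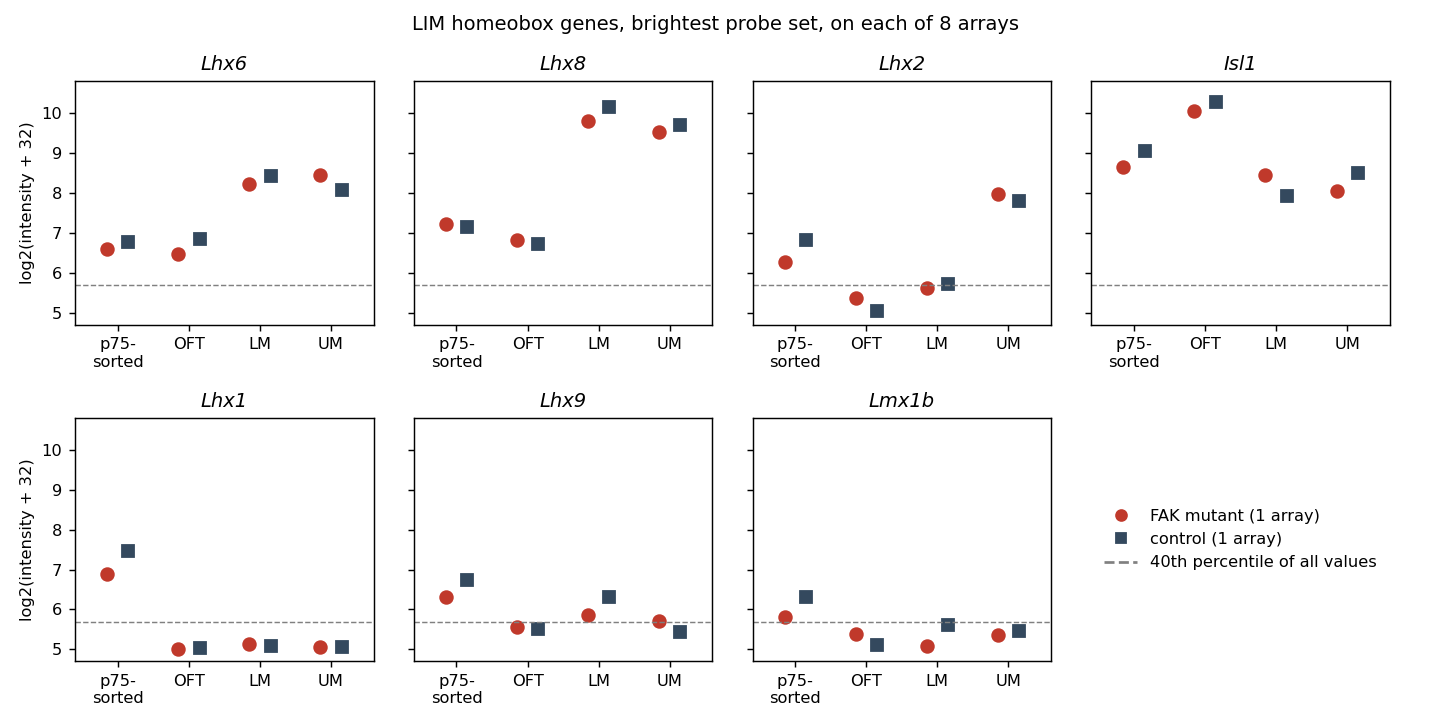
Level of each LIM homeobox gene as log2(intensity + 32) on the 8 arrays, by origin, with red circles for FAK mutants, dark squares for controls and a dashed line at the 40th percentile of all values. Lhx6 and Lhx8 lie high in LM and UM, Lhx2 in UM, Isl1 in OFT, and Lhx1 lies above the dashed line only in p75-sorted cells.

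Genes that share the oral mesenchyme with Lhx6 and Lhx8, and Fgf8 of the facial ectoderm, were tested from a list of 10. Of the 10, 9 were measured. Of these, 7 fell in OFT against LM and UM and 0 rose, where 3.89% of all genes tested fell by limma at an adjusted p under 0.05 and 15.2% were called in either direction. The 7 include Fgf8, which was above the dim level only on the UM arrays, at 40.5 in the mutant and 27.4 in the control. It entered the test only through these arrays and had to lie lower in OFT than in UM, so its call is not read as a result. The list median was -1.37, against 0.01 over all genes tested. Pitx1, which encodes a homeodomain factor of the mandible, differed by -3.45 ± 0.16 (limma adjusted p = 2.6e-08). Msx1, a homeobox gene of facial mesenchyme, differed by -3.40 ± 0.19 (limma adjusted p = 1.1e-07). Shox2 and Barx1, homeobox genes of palate and jaw mesenchyme, differed by -1.57 ± 0.16 and -1.52 ± 0.20. Bmp4, a growth factor gene, differed by 0.47 and did not pass. Among markers of other cell types, 3 of 6 surface epithelium markers fell in the same contrast and 0 rose: Krt14 by 1.78, Krt5 by 0.89 and Trp63 by 0.81. The calls of Krt5, at limma adjusted p = 0.18, and Trp63, at 0.07, were lost without the OFT mutant array, and that of Trp63 also without the OFT control array, at 0.052. The 6 summed to 1473 and 1520 in the OFT mutant and control, against 1275 to 2263 on the 4 LM and UM arrays. Of 5 neural tube markers, Pax3 and Pax6 fell, and Pax6 missed the threshold without either OFT array, at 0.061 and 0.23. Their part in the Lhx6 and Lhx8 levels was not tested. Without the OFT mutant array 4 of the 9 oral mesenchyme genes fell, and without the OFT control array 5.

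In LM against UM 4 of the 9 rose in LM and 0 fell, beside 0.738% of all genes that rose and 1.55% called in either direction. Pitx1 had intensities of 1189 and 1032 in the LM mutant and control, against 161 and 124 in the UM mutant and control, a difference of 2.71 ± 0.18 (limma adjusted p = 6.9e-06). Dlx1, Barx1 and Gsc rose by 1.35, 1.07 and 0.89. These 3 calls were lost without the LM control array, at limma adjusted p = 0.19, 0.42 and 0.27, and without the UM control array, at 0.28, 0.41 and 0.16. Dlx1 and Barx1 also missed the threshold without either p75-sorted array, at 0.072 and 0.088, Barx1 and Gsc without either OFT array, at 0.065 and 0.058, and Gsc without the UM mutant array, at 0.16. With a pseudocount of 1 the 3 had 0.3, 0.3 and 0.16. Whether these differences exceed that of Lhx8, 0.36, was not tested.

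Lhx2 was highest in UM. It had intensities of 221 and 189 in the UM mutant and control, 45.1 and 80.0 in the p75-sorted mutant and control, 17.5 and 20.4 in the LM mutant and control, and 9.62 and 1.16 in the OFT mutant and control. UM stood above p75-sorted cells and these above LM with no overlap, while LM was near the dim level of 19.4 and OFT below it. LM minus UM was -2.22 ± 0.22, and OFT differed from the LM and UM average by -1.56 ± 0.19, on the log2(intensity + 32) scale, which understates differences of dim genes. Without the p75-sorted control array, p75-sorted cells lay at -0.06 relative to the average of the 3 unsorted origins, against 0.28 with all arrays.

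In head muscle, Lhx2 acts with Tcf21, Msc, Tbx1 and the myogenic factors. Of 6 measured genes of that list, 5 rose in LM against UM and 0 fell, beside 0.738% of all genes that rose, while Lhx2 lay lower in LM. Myog, a factor of muscle differentiation, rose by 2.61 ± 0.26 (limma adjusted p = 0.00021), and Myf5, which specifies muscle precursors, by 1.93 ± 0.18 (limma adjusted p = 0.00012). Tcf21 and Msc, transcription factor genes of branchial muscle precursors, rose by 1.66 and 1.56. Myod1, the fifth of them, missed the threshold without the LM control array, at limma adjusted p = 0.083, and without the UM mutant array, at 0.14. With a pseudocount of 1 Myog and Tcf21 had 0.052 and 0.053. Markers of the neural tube moved the way Lhx2 did: Pax6, Sox2 and Pax3 fell in LM against UM by 1.44, 1.65 and 1.65 (limma adjusted p = 0.00084, 0.00068 and 0.0033), 3 of the 5 tested, with 0 that rose, beside 0.812% of all genes that fell. With a pseudocount of 1 their adjusted p was 0.062, 0.067 and 0.35, and Pax6 had 0.055 when all probe sets of a gene were averaged. Of the markers of other cell types, 3 of 8 for neurons, 1 of 6 for surface epithelium and 1 of 6 for neural crest and glia also fell. Of 17 alternatives, the neuron calls were lost in 9 for Elavl4, 5 for Tubb3 and 1 for Stmn2. The calls of Epcam, of the epithelium, and Tfap2a, of the crest, were each lost in 8 of 17. Skeletal muscle precursor markers went both ways, with 3 of 5 that rose and 1 that fell. The 3 were Myog, Myf5 and Myod1, given above. Pax7 fell by 2.14 (limma adjusted p = 0.00011, and 0.059 with a pseudocount of 1). The summed intensity of the 6 neural tube markers was 477 and 442 in the LM mutant and control, against 1410 and 1612 in the UM mutant and control. Sox1, a marker of neural progenitors, did not pass the filter on dim genes. The part of these cell types in the Lhx2 level was not tested.

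Isl1 was highest in OFT. It had intensities of 1029 and 1201 in the OFT mutant and control, against 316 and 209 in the LM mutant and control and 233 and 333 in the UM mutant and control. In p75-sorted cells it had 369 in the mutant and 493 in the control. OFT lay above p75-sorted cells, and these above LM and UM, with no overlap, while LM and UM overlapped. OFT differed from the LM and UM average by 1.93 ± 0.20 on the log2(intensity + 32) scale, or 3.81-fold. Relative to the average of the 3 unsorted origins, p75-sorted cells differed by -0.03 ± 0.19, with OFT above and LM and UM below them.

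Most partners of Isl1 in heart progenitors were also higher in OFT than the LM and UM average. Of 9 measured genes, 7 rose in OFT against LM and UM, beside 11.3% of all genes that rose, and 1 fell, and the list median was 1.57. Tbx20 and Gata6, cardiac transcription factor genes, rose by 5.09 ± 0.19 (limma adjusted p = 3.5e-09) and 4.02 ± 0.17 (limma adjusted p = 1.2e-08). Hand2, a factor of the heart and lower jaw, rose by 2.27 against the LM and UM average, but its OFT and LM arrays overlapped. It had intensities of 1030 and 1195 in the OFT mutant and control and 936 and 1119 in the LM mutant and control. In the UM mutant and control it had 33.0 and 11.8. LM minus UM was 4.31 for Hand2 (limma adjusted p = 1.7e-06). Gata4, another cardiac factor, rose by 1.82 in OFT, with a limma adjusted p of 0.056 at a pseudocount of 1. Outside OFT it was above the dim level only in the LM mutant, at 30.0, so it passed the filter only with the OFT arrays. Its call, among the 7, is therefore not read as a result. Fgf8, a growth factor gene of the second heart field and facial ectoderm, was above the dim level only on the UM arrays. It therefore had to lie lower in OFT than in UM, and it differed by -0.63 (limma adjusted p = 0.015). This call was lost without the OFT mutant array, at 0.2, and without the OFT control array, at 0.12.

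Markers of cardiac muscle, endothelium, neurons, and neural crest and glia moved with Isl1 between OFT and the other unsorted origins. Of the 6 cardiac muscle markers 5 rose, beside 11.3% of all genes that rose and 15.2% called in either direction. Outside OFT, Myl7 was above the dim level only in the p75-sorted control, at 24.8, and Tnni3 only in the LM control, at 26.4. These markers, among the 5, passed the filter only with the OFT arrays, so their calls are not read as results. The 6 cardiac muscle markers summed to 13404 and 11948 in the OFT mutant and control, against 44.3 to 119.8 on the 4 LM and UM arrays. The 8 neuron markers summed to 2551 and 4118 in the OFT mutant and control, against 481 to 1698 on the 4 LM and UM arrays, and 5 of 8 rose. Without the OFT control array Stmn2 and Snap25, of the 5 neuron markers that rose, missed the threshold at limma adjusted p = 0.061 and 0.092. All 4 endothelium markers rose, among them Tek by 1.49 and Pecam1 by 0.94, and they summed to 942 and 1149 in the OFT mutant and control, against 443 to 492 on the 4 LM and UM arrays. Cdh5 and Kdr, of these, missed the threshold without the OFT control array. The Cdh5 call was lost in 10 of 16 alternatives, among them a pseudocount of 1, at limma adjusted p = 0.13. That of Kdr was lost in 2 of 16 and those of Tek and Pecam1 in 0. Of 6 neural crest and glia markers 3 rose and 1 fell, and without the OFT control array Ngfr and Erbb3 missed the threshold. The part of these cell types in the Isl1 level was not tested.

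Lhx1, Lhx9 and Lmx1b were highest in p75-sorted cells. Lhx1 had intensities of 87.3 and 144 in the p75-sorted mutant and control, against 0.390 to 3.05 on the other 6 arrays, all below the dim level. It passed the filter on dim genes only through the p75-sorted arrays, and so did Lmx1b. Lmx1b had 23.8 and 47.0 in the p75-sorted mutant and control, against 2.08 to 17.0 on the other 6 arrays. Lhx9 had 47.8 and 75.7 in the p75-sorted mutant and control, 26.7 and 47.9 in the LM mutant and control, and 11.3 to 20.5 on the 4 OFT and UM arrays. The LM control thus reached the p75-sorted mutant, and these origins overlapped. Relative to the average of the 3 unsorted origins, p75-sorted cells differed by 2.11 ± 0.16 for Lhx1, 0.80 ± 0.17 for Lhx9 and 0.71 ± 0.18 for Lmx1b, values that a smaller pseudocount enlarges.

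Neuronal partners were tested in the same contrast. Of 6 genes tested in a list of 10 with factors that act beside Isl1 and Lhx1 in neurons, 5 rose and 0 fell, beside 28.2% of all genes that rose in p75-sorted cells and 47.1% called in either direction. The 5 include Lhx5 and Neurog2, which passed the filter only through the p75-sorted arrays and so had to lie higher there. They also include Lhx3, which outside p75-sorted cells was above the dim level only in the OFT mutant. Without the p75-sorted arrays Lhx3 would not have passed the filter, and it is described again among the LIM homeobox genes. The calls of Lhx5, Neurog2 and Lhx3 are not read as results. Pou4f1, a factor of sensory neurons, had intensities of 135 and 231 in the p75-sorted mutant and control, against 14.3 to 54.9 elsewhere, a difference of 1.79 ± 0.23 (limma adjusted p = 7.9e-05). Prph, a neuronal intermediate filament gene, rose by 1.49 ± 0.19 (limma adjusted p = 8.1e-05). All 8 neuron markers rose as well, and summed to 3489 and 5905 in the p75-sorted mutant and control, against 481 to 4118 on the other 6 arrays. Nefl missed the threshold without the p75-sorted control array, at limma adjusted p = 0.075, as did Nefm, at 0.16, and Snap25, at 0.31. Nefm also missed it without the p75-sorted mutant array, at 0.072. Among the listed partners, Lhx3 missed it without the p75-sorted control array, at 0.15, as did Neurog2, at 0.075. Other cell types moved too. Of 6 neural crest and glia markers 5 rose, Ngfr, the gene of the sort, among them, with a list median of 2.54 against 1.64 for neurons. They summed to 6999 and 5670 in the p75-sorted mutant and control, against 983 to 2196 on the other 6 arrays. Of 5 skeletal muscle precursor markers 4 rose, and of 5 neural tube markers 3 rose. Of these, the Pax6 call was lost in 10 of 15 alternatives, with a limma adjusted p of 0.78 when all probe sets were averaged. Calls were lost in 7 of 15 for Pax7, 3 for Sox2, 2 for Nes, 1 for Chrna1 and 0 for Myod1 and Myog. The part of these cell types in the levels of Lhx1, Lhx9 and Lmx1b was not tested.

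The 5 remaining LIM homeobox genes were tested as well, and 4 passed the filter on dim genes. Lhx5, a neuronal LIM factor gene, had intensities of 31.4 and 58.9 in the p75-sorted mutant and control against 0.991 to 12.9 elsewhere. It passed the filter only through the p75-sorted arrays, so its call there is not read as a result. Lhx3, a gene of pituitary and motor neurons, had 35.2 and 54.5 in the p75-sorted mutant and control. Elsewhere it was below the dim level except in the OFT mutant, which lay just above it. It differed by 0.85 ± 0.20 in p75-sorted cells (limma adjusted p = 0.0037). Without the p75-sorted arrays it would not have passed the filter, so this call is not read as a result either. The Lhx3 call was lost without the p75-sorted control array, at 0.15, and its dimmer probe set stayed below the dim level on every array. Isl2 and Lmx1a differed by 0.02 and -0.22 and did not pass. Lhx4, with intensities of 1.28 to 25.9, did not enter the test. Among all genes tested, 28.2% rose in p75-sorted cells and 47.1% were called there in either direction. In OFT against LM and UM, and in LM against UM, limma called 0 of the 4, beside 15.2% and 1.55% of all genes.

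Cofactors carry LIM factors' activity: Ldb1 and Ldb2 bridge LIM domains, Ssbp proteins stabilise them, Rlim marks them for degradation, and Lmo proteins compete for them. All 10 listed genes were measured. In p75-sorted cells 2 rose and 2 fell, beside 28.2% of all genes that rose and 18.9% that fell, and the list median was 0.24 against 0.07 over all genes. Ssbp3 rose by 0.96 ± 0.17 (limma adjusted p = 0.00062), with intensities of 1721 and 1370 in the p75-sorted mutant and control against 649 to 955 elsewhere. Ldb1 rose by 0.73 ± 0.18 (limma adjusted p = 0.0056), Lmo2 fell by 0.81 (adjusted p = 0.0021) and Rlim fell by 0.52 (adjusted p = 0.016). The other 6 did not pass, with differences between -0.27 for Lmo1 and 0.39 for Ssbp2. Calls were lost without the p75-sorted mutant array for Ldb1, at 0.11, and Lmo2, at 0.12, and without the p75-sorted control array for Rlim, at 0.3. When all probe sets of a gene were averaged, Ssbp3 had an adjusted p of 0.32 and Rlim 0.48.

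In OFT against LM and UM 1 of the 10 cofactor genes fell and 0 rose, beside 3.89% of all genes that fell and 15.2% called in either direction. This was Lmo4, at -0.65 ± 0.16 (limma adjusted p = 0.016), and the call was lost without either OFT array, at 0.11 and 0.23. In LM against UM 0 of the 10 passed by limma. Their differences there lay between -0.56 for Lmo2 and 0.62 for Lmo4.

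**Figure D2:**
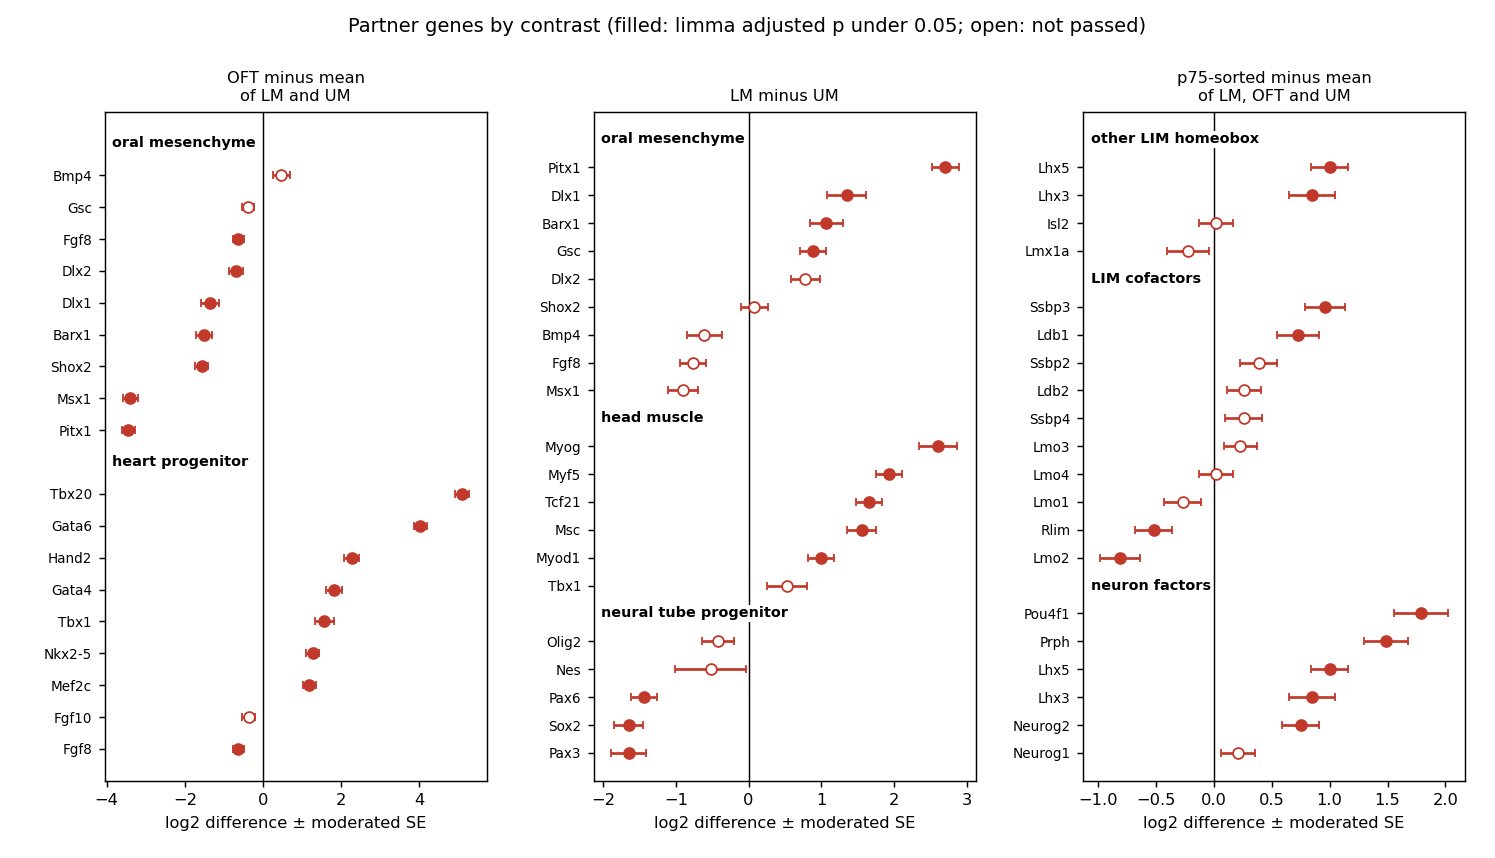
Log2 differences of partner genes with bars of ± 1 moderated SE, in 3 panels, with OFT set against LM and UM, then LM against UM alone, then p75-sorted cells against the rest (n = 2 arrays per origin). Filled points passed limma at an adjusted p under 0.05 over all 13543 genes tested and open points did not. In OFT 7 of 9 genes of the oral mesenchyme list fell, Fgf8 of the facial ectoderm among them. There 7 of 9 heart progenitor genes rose, among them Gata4, which passed the filter only with the OFT arrays. In LM 5 of 6 head muscle genes rose.

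For Lmx1b, 5 of 8 listed genes of periocular and dorsal tissue were tested. In OFT against LM and UM, Foxc1 and Foxc2, forkhead genes of head and heart mesenchyme, rose by 1.42 and 1.20, and Tfap2b and Fgf8 fell by 1.53 and 0.63, beside 11.3% of all genes that rose and 3.89% that fell. In LM against UM Tfap2b, a gene of crest and periocular cells, fell by 1.72 (limma adjusted p = 0.0031, and 0.16 with a pseudocount of 1), and 0 rose, beside 0.812% of all genes that fell. Fgf8 passed the filter on dim genes only through the UM arrays, so it had to lie below UM in OFT and p75-sorted cells. In p75-sorted cells 0 rose and Fgf8 fell by 0.39, beside 18.9% of all genes that fell. That call was lost in 9 of 15 alternatives, among them at adjusted p = 0.3 without the p75-sorted mutant array and 0.11 without the p75-sorted control array.

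Members not overlapping between origins were counted. Of the 7, 1 lay higher in OFT than on all LM and UM arrays, as 23.0% of all genes tested did, and 4 lay lower, as 17.0% did. Between LM and UM 3 lay higher and 1 lower, beside 16.7% and 18.1% of all genes. In p75-sorted cells 2 lay above all other arrays and 0 below, beside 27.9% and 18.5%. These 2 were Lhx1 and Lmx1b, whose filter was passed only through the p75-sorted arrays, so that this count was nearly fixed by the filter. Lhx1 was among the 4 lower in OFT and among the 3 higher in LM, although it was below the dim level on all of these arrays.

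The probe sets of a gene mostly agreed on the origin where it was highest. Both Isl1 probe sets had the order OFT, p75-sorted, UM, LM, and OFT against LM and UM differed by 1.93 with the brighter and 1.48 with the dimmer. Both Lhx1 probe sets were above the dim level only in p75-sorted cells, with differences of 2.11 and 1.87. The dimmer Lhx6 probe set put UM above LM, and it had 70.4 in the LM mutant and 22.3 in the LM control, where the brighter had 267 and 310.0. The sign of the LM pair thus depended on the Lhx6 probe set. Of the 4 Lhx9 probe sets, the 2 brighter were highest in p75-sorted cells, at 0.80 and 0.91, and the other 2 rose above the dim level on 1 and 0 arrays. The dimmer Lmx1b probe set stayed below the dim level on all 8 arrays. Lhx2 and Lhx8 had 1 probe set each.

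**Figure D3:**
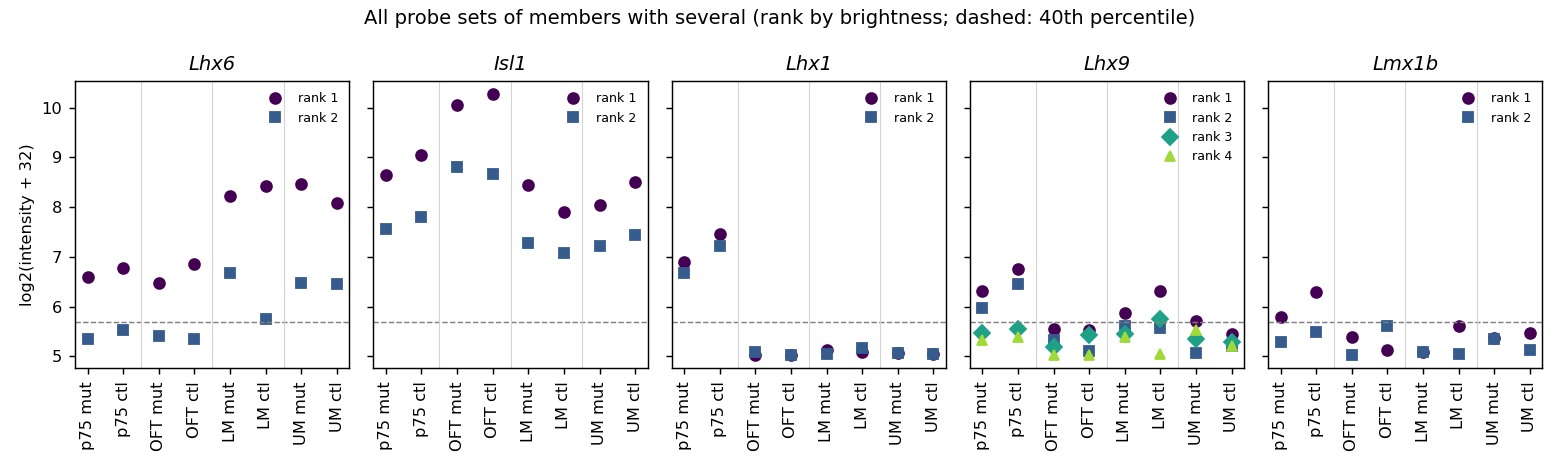
Level of every probe set of the 5 genes with several, as log2(intensity + 32) on the 8 arrays, with mutant left of control in each origin and markers ranked by brightness. The Isl1 and Lhx1 probe sets move together, and the dimmer Lhx6 probe set departs from the brighter one in the LM pair.

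The genes most like each member were ranked by Pearson correlation of log2(intensity + 32) over the 8 arrays, among genes spanning at least 2 on that scale. The arrays fall into 4 origins, so the correlations mostly compare origins, and they are a description with no test. Lhx8 was most like Cxcl14, AI606473 and Emx2, each at 0.980, and Lhx6 was most like Cxcl14 at 0.983, Lhx8 at 0.973 and Gabrp at 0.972. Cxcl14, a chemokine gene, had intensities of 3.14 and 35.2 in the OFT mutant and control, against 584 and 618 in the LM mutant and control and 482 and 389 in the UM mutant and control. Lhx2 was most like Otx2 at 0.980, Tmem30b at 0.968 and Crym at 0.955. Otx2, a homeobox gene of the forebrain and anterior head, had 181 and 194 in the UM mutant and control, against 0.207 to 66.2 on the other 6 arrays. Isl1 was most like Irs4 at 0.989, Eln, the elastin gene, at 0.976 and Myl9, a smooth muscle myosin light chain gene, at 0.974. Irs4, an insulin receptor substrate gene, had 279 and 296 in the OFT mutant and control, against 5.32 to 52.7 on the other 6 arrays.

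Lhx1 was most like Robo3, a receptor gene of commissural axons, at 0.991, Oc90, an inner ear gene, at 0.991 and Rundc3a at 0.990. Robo3 had 171 and 239 in the p75-sorted mutant and control, against 0.538 to 10.4 on the other 6 arrays. Lhx9 was most like Shisa3 at 0.981, Hmx1, a homeobox gene of cranial ganglia and mesenchyme, at 0.911 and Mir124-2hg, the host transcript of a neuronal microRNA, at 0.909. Lmx1b was most like Mir124-2hg at 0.927, Celf5 at 0.913 and Soga3 at 0.910.

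Mutant against control was the last comparison, with 4 pairs of arrays, 1 per origin. Across all 13543 genes limma called 0, or 0.00%, at an adjusted p under 0.05, and 412 had an unadjusted p under 0.05. The mean differences of the 7 LIM homeobox genes on the log2(intensity + 32) scale lay between -0.21 ± 0.15 for Lmx1b and -0.03 ± 0.15 for Lhx2 (moderated SE, n = 4 pairs). All 7 means were below 0, as were 54.5% of all genes tested, and 0 of the 7 had the same sign in every pair, beside 3.92% of all genes higher in 4 of 4 pairs and 5.24% lower. Without the p75-sorted pair 5 of the 7 means were below 0. Of the remaining LIM homeobox genes limma called 0 of the 4 tested, and of the cofactor genes 0 of 10, with list medians of 0.04 and -0.03.

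Within p75-sorted cells 6 of the 7 genes lay lower in the mutant array, as did 52.3% of all genes tested, and 1 lay higher, as did 47.7%. Their median difference was -0.43, against -0.02 over all genes. Lhx1, Lhx2 and Lmx1b differed most, by -0.56, -0.54 and -0.50, and Lhx8, with 117 in the mutant and 109 in the control, was the exception. Of the remaining LIM homeobox genes, Lhx3, Lhx5 and Isl2 lay lower there, by -0.37, -0.52 and -0.30, and Lhx4 and Lmx1a higher, by 0.50 and 0.23. All 8 neuron markers lay lower in that mutant too, with a median difference of -0.63. Of 5 skeletal muscle precursor markers 0 lay lower, with a median difference of 0.72. Of 6 neural crest and glia markers 1 lay lower, with a median difference of 0.26. The Gapdh ratio given above differed within the pair. These values compare 1 array with 1 array, with no replicate check. The part of these cell types or of RNA quality was not tested.

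In the other pairs the 7 genes went both ways. In LM 5 lay lower and 2 higher in the mutant, beside 55.1% and 44.9% of all genes. In OFT 3 lay lower and 4 higher, beside 57.2% and 42.8%, and in UM 3 lay lower and 4 higher, beside 43.1% and 56.9%. Isl1 differed by -0.39 in p75-sorted cells, -0.22 in OFT, 0.53 in LM and -0.47 in UM. The neuron marker median had the same 4 signs, at -0.63, -0.67, 0.56 and -0.65. That order of signs, higher in the LM mutant and lower in the others, was shown by 5.77% of all genes tested. The dimmer Isl1 probe set differed by -0.24, 0.13, 0.19 and -0.23 in the same order, so its OFT pair had the opposite sign. Whether neurons account for the Isl1 differences was not tested.

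**Figure D4:**
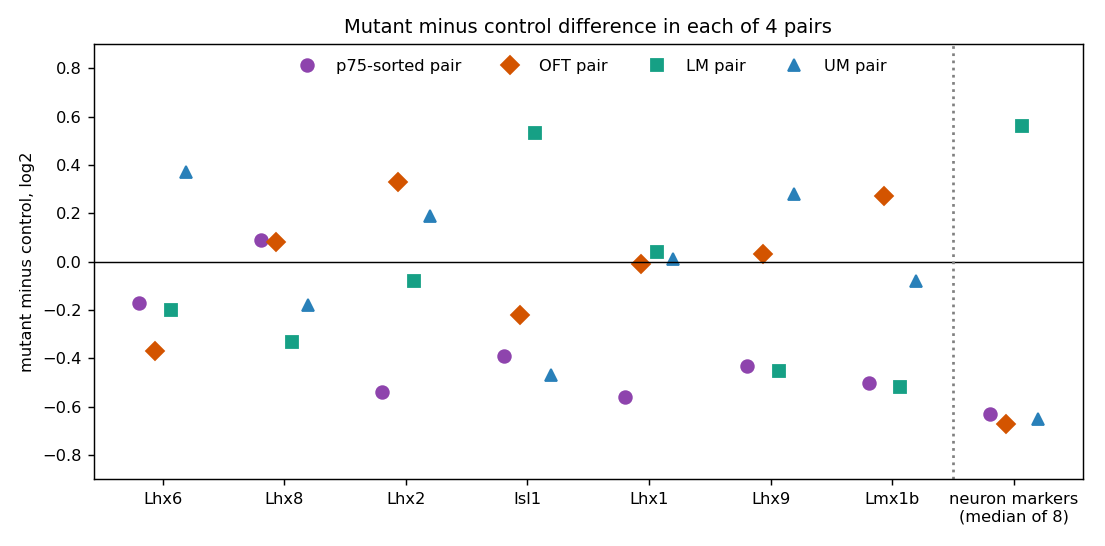
Mutant minus control difference in log2(intensity + 32) for each gene in each of the 4 pairs, 1 array against 1 array, with the median of the 8 neuron markers at the right. Isl1 and the neuron markers lie above 0 in LM and below 0 in the other pairs, and the p75-sorted pair lies below 0 for every gene shown but Lhx8.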

How the data were processed

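The deposited values were array intensities on a linear scale, 1 column per array, with the software and scaling not given in the sources used here. The trimmed mean of each array, over the 2nd to 98th percentile, was 150.0 for all 8. No further normalization was applied. Of 45101 probe sets, 34945 had 1 gene symbol in the platform annotation, 932 had several and 9224 had none, and genes were named only from probe sets with 1 symbol. The brightest probe set stood for its gene. Tests were kept to genes above the 40th percentile, an intensity of 19.4, on 2 or more of the arrays, which left 13543 of 18193 genes. limma 3.58.1 in R 4.3.3 was fitted to log2(intensity + 32) with origin and genotype as terms over all 8 arrays, with 3 residual and 9.18 prior degrees of freedom, and p-values were Benjamini-Hochberg adjusted over all genes tested at 0.05. Origin pairs mutant with control, as the labels give it. The p-values rest on the spread of mutant against control differences between origins, not on repeats of 1 origin. Array number limits the precision. The members and gene lists were chosen with earlier results of these data known. Named partner genes were all of the remaining LIM homeobox genes and cofactors, and up to 4 called genes with the largest differences per other list and origin contrast, and genes named beyond these were chosen after their values were seen. Alternatives changed the pseudocount, filter, probe set rule, normalization, variance model, origin term and arrays used.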

Additional observations from a re-analysis of the deposited data

Results flagged for a closer look

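In each of the 7 genes the 4 mutant minus control differences, 1 per origin, were examined for a pair far from the others. The p75-sorted pair of Lhx1 stood apart, at -0.56 on the log2(intensity + 32) scale, with the other 3 pairs between -0.01 and 0.04. Lhx1 was below the dim level on the other 6 arrays, so the log2(intensity + 32) scale held their 3 pairs near 0 and the p75-sorted pair had to stand apart. The gap is a description, and nothing is read from it.

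In Lhx2, Lhx6 and Isl1 there were pairs of opposite direction, by at least 0.3 each way. Lhx2 differed by 0.33 in OFT and -0.54 in p75-sorted cells. Lhx6 differed by 0.37 in UM and -0.37 in OFT. Isl1 differed by 0.53 in LM and -0.47 in UM. Each value sets 1 mutant array against 1 control array, and the difference between origins was not tested.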

How the results depend on the processing

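The count of genes called in mutants against controls was 0 with all arrays and 0 with no replicate block, that is, with origin left out of the model. It lay between 0 and 1 when single arrays or pairs were left out. OFT against LM and UM had 2060 calls, 1012 with a pseudocount of 1, and 631 to 2154 without single arrays, the lowest without the OFT control and 1032 without the OFT mutant. LM against UM had 210 calls, 64 with a pseudocount of 1, and 111 to 227 without single arrays: 130 without the LM control, 111 without the UM control and 117 without the UM mutant. p75-sorted cells had 6380 calls, and 3238 to 6428 without single arrays, the lowest without the p75-sorted mutant. The causes were not tested, though fewer arrays leave fewer degrees of freedom. Of 465 differences of the 7 genes under alternatives, 42 moved by more than 1 SD, and of 938 list counts 72 moved. Lhx8 in OFT against LM and UM ranged from -3.47 to -2.71, Lhx6 from -2.01 to -1.29, Isl1 from 1.71 to 2.15 and Lhx2 from -3.74 to -1.11. Lhx1 in p75-sorted cells ranged from 1.44 with a pseudocount of 64 to 5.61 with a pseudocount of 1, since the other arrays are dim. When all probe sets of a gene were averaged, Lmx1b did not pass the filter. Dim probe sets limit Lhx1, Lhx9 and Lmx1b outside p75-sorted cells.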
